A study of Homo sapiens with 3 samples.

Results

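The aminoacyl-tRNA synthetase genes were followed in chromatin immunoprecipitation sequencing (ChIP-seq) maps of BMAL1 and MAX from MDA-MB-231, a long-established cell line from a human triple-negative breast tumour. The group comprised 38 genes chosen by name, of 20098 protein-coding genes on the autosomes and the X chromosome. It held 19 genes of cytosolic enzymes, 16 genes of mitochondrial enzymes, whose symbols end in 2, and 3 genes of scaffold proteins (AIMP1, AIMP2 and EEF1E1) of the cytosolic multi-synthetase complex. All 38 symbols were found in the gene annotation. The list follows the enzyme family and not a measured value, but it was drawn up with earlier results of these data known.

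The study immunoprecipitated BMAL1 or MAX from cross-linked chromatin of adherent cultures close to confluence, and sequenced 1 library for each antibody together with 1 library of input chromatin. The labels of the ChIP libraries give the same cell line, without a genetic change, drug or time point that would separate them, and name no treatment to synchronise the clock. With 1 library per antibody there was no spread between replicates, so no test between groups of genes was possible and every difference stated here is a difference within these libraries. For each peak the deposited lists give the summit (the position of highest signal), the pileup (the number of extended fragments covering the summit), the fold enrichment (that pileup over the local background estimated from the input) and the -log10 of a p-value. The BMAL1 list held 756 peaks from 13866783 tags and the MAX list 13650 peaks from 11545865 tags, both called against 29308882 input tags. The median fold enrichment over all listed peaks was 10.3 for BMAL1 and 9.73 for MAX. A gene without a listed peak is therefore a gene where no peak passed the cutoff at this depth.

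Aminoacyl-tRNA synthetases join each amino acid to its tRNA and so supply the ribosome with its substrates. The cytosol and the mitochondria mostly use different enzymes, both encoded in the nucleus, although GARS1 and KARS1 each give rise to both forms. Several cytosolic enzymes are held together by the AIMP1, AIMP2 and EEF1E1 scaffolds in the multi-synthetase complex. MAX is the obligate partner of MYC and of the MXD and MNT repressors and binds the E-box CACGTG, which CLOCK and BMAL1 also bind, and genes of protein synthesis are classical MYC targets. Many cytosolic synthetase genes are also known targets of ATF4, the transcription factor of the amino acid and unfolded protein stress response, which binds a composite element with the core TGATGCAA.

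Both elements were present under the MAX peaks of this group, and their sequences are shown first because the comparisons of sequence below turn on them. A CACGTG was found within the 200 bp centred on the MAX summit at FARSB, IARS1, EARS2, NARS2 and EEF1E1. The sequences are from the GRCh37 assembly, which hg19 names, on the strand of the gene (minus in all 5), 5′ to 3′, with the E-box in capitals. They lie at chr2:223521148-223521177 for FARSB, chr9:95056148-95056177 for IARS1, chr16:23568669-23568698 for EARS2, chr11:78285769-78285798 for NARS2 and chr6:8102529-8102558 for EEF1E1.
FARSB: ggcaagatctccCACGTGgaggccccaccc
IARS1: tggttcgttttcCACGTGgaggcgcaaaac
EARS2: cagggagaagccCACGTGtgctattccatc
NARS2: agctgccaactgCACGTGgtttctttctgg
EEF1E1: tacccagctcccCACGTGtctgcgccgcta

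The ATF4 element core TGATGCAA was found within the MAX peak or the promoter sequence of 9 members, in 7 of which the strand of the gene reads TTGCATCA, its reverse complement. The sequences are from GRCh37 on the strand of the gene, 5′ to 3′, with the core in capitals. They lie at chr16:70323578-70323607 for AARS1, chr11:3078637-3078666 for CARS1, chr1:220219635-220219664 for EPRS1, chr9:95055974-95056003 for IARS1, chr18:55289036-55289065 for NARS1, chr1:33282938-33282967 for YARS1 (all on the minus strand), chr12:57881836-57881865 for MARS1, chr5:33441062-33441091 for TARS1 and chr6:5261369-5261398 for FARS2 (plus strand).
AARS1: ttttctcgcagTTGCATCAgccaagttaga
CARS1: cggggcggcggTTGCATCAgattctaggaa
EPRS1: acctgtgtgggTTGCATCAgccagggaggg
IARS1: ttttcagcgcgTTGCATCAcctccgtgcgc
NARS1: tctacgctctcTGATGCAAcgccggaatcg
YARS1: ccgagcccagcTGATGCAAcctggctggac
MARS1: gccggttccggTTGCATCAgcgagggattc
TARS1: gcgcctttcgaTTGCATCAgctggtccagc
FARS2: gggacgtgcagTTGCATCAcggagagcctt

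To examine how much of the group carried each factor at its start sites, summits within 1 kb of any annotated transcription start site (TSS) of a gene were counted. MAX was listed at 33 of the 38 members, a share of 86.8% (95% exact binomial interval 71.9 to 95.6), whereas it was listed at 36.4% of all protein-coding genes (7310 of 20098). The cytosolic enzymes carried MAX at 17 of 19 genes (89.5%, 66.9 to 98.7) and the mitochondrial enzymes at 13 of 16 (81.2%, 54.4 to 96.0), so the intervals of both classes lay above the share over all genes and overlapped each other. All 3 scaffold genes had a MAX peak, as did 6 of the 7 enzymes of the multi-synthetase complex (EPRS1, IARS1, KARS1, LARS1, MARS1 and QARS1), with RARS1 the member of the complex without one. The intervals cover counting error only, and the genes of a list are not replicates.

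BMAL1 was not listed at the start of any member. Its summits lay within 1 kb of a TSS at 0 of 38 genes, with an exact binomial upper bound of 9.25% (7.89% if a count of 0 is taken to allow 3 genes), against 1.85% of all protein-coding genes (372 of 20098). At that background share, a list of 38 genes is too short to tell a lack of BMAL1 from the level over all genes.

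**Figure D1:**
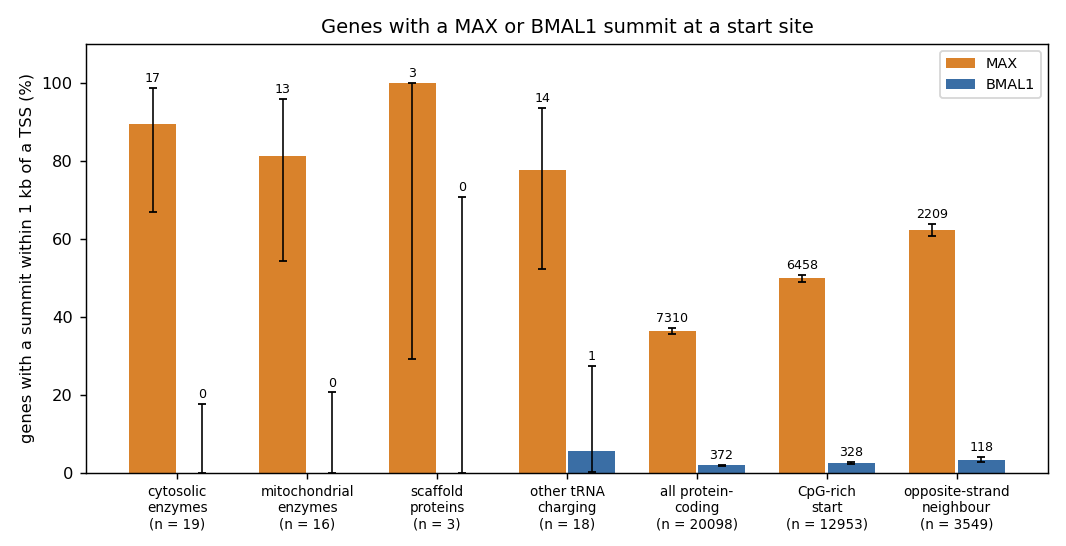
Percentage of genes with a MAX (orange) or BMAL1 (blue) summit within 1 kb of a TSS, by gene class. Bars start at 0, lines are 95% exact binomial intervals, the number above each bar is the number of genes with a peak, and n is the number of genes. MAX reached 89.5% of the cytosolic and 81.2% of the mitochondrial enzyme genes against 36.4% of all protein-coding genes, and BMAL1 reached none of the 38 members.

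Features of the start sites that go with MAX over the whole genome were also more frequent in the group. A CpG-rich start, with GC of at least 50% and an observed to expected CpG ratio of at least 0.6 in 1 kb, was found at 34 of 38 members (89.5%) and at 64.4% of all protein-coding genes, the exceptions being IARS1, RARS1, WARS1 and TARS2. Among all genes with such a start, MAX was listed at 49.9% and BMAL1 at 2.53%, and without one MAX was listed at 11.9%. Members had a median of 12.5 annotated TSSs against 5 over all genes, and MAX was listed at 52.8% of all genes with 10 or more TSSs. MAX was listed at 21 of 25 members with 10 or more TSSs and at 12 of 13 members with fewer, where its share over all genes was 30.7%. Of the members with a CpG-rich start, 31 of 34 carried MAX (91.2%, 76.3 to 98.1). Of those with both a CpG-rich start and 10 or more TSSs, 19 of 21 did (90.5%, 69.6 to 98.8), compared with 57.7% of all genes with both. The part of these features in the members' share was not tested beyond these counts.

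A protein-coding TSS on the opposite strand lay within 1 kb of a TSS at 14 of 38 members (36.8%), compared with 17.7% of all genes. These neighbours were DDX19B at AARS1, TERF2IP at KARS1, ARHGAP9 at MARS1, WDR25 at WARS1, S100PBP at YARS1, ING1 at CARS2, UBFD1 at EARS2, LYRM4 at FARS2, ORC3 at RARS2, MRPS12 at SARS2, TBCK at AIMP1 and PMS2 at AIMP2, while HARS1 and HARS2 neighboured each other. MAX was listed at 13 of these 14 members, with AARS1 the exception, and at 20 of the 24 members without such a neighbour. Over all protein-coding genes with an opposite-strand neighbour, the share was 62.2%. A summit in such a place cannot be assigned to either gene from these data. When each summit was counted only for the protein-coding gene with the nearest TSS, MAX was listed at 30 members (78.9%, against 31.2% of all genes), with 16 of 19 cytosolic and 11 of 16 mitochondrial enzymes (68.8%).

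The height of the MAX peaks overlapped that at other genes. The strongest MAX peak of each of the 33 members had a median fold enrichment of 11.85 (95% order-statistic interval 9.65 to 13.1, range 5.92 to 28.0), compared with 10.8 over the 7310 protein-coding genes with one (quartiles 8.57 and 13.9). Of the 33 members, 19 were above the median of those genes, 10 were above their upper quartile and 6 were below their lower quartile. The medians were 11.45 for cytosolic enzymes (17 genes), 11.85 for mitochondrial enzymes (13 genes) and 13.1 for the scaffolds (3 genes).

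FARSB, the β subunit of cytosolic phenylalanyl-tRNA synthetase, had the strongest MAX peak of the group, at chr2:223520171-223521549. Its fold enrichment was 28.0 (exact Poisson interval of the pileup, 19.8 to 38.4), with a pileup of 38 and a -log10 p of 41.7, and 99.3% of all MAX peaks were weaker. The summit lay 337 bp upstream of the TSS, outside the transcribed region, and 15 bp from the CACGTG printed above. FARSA, which encodes the α subunit of the same enzyme, had a fold enrichment of 6.35 (3.88 to 9.81) with a pileup of 20 and a summit 5 bp from a TSS. The intervals of the fold enrichment at these partner subunit genes did not overlap. They hold the local background fixed, at 1.36 fragments for FARSB and 3.15 for FARSA. The intervals of the pileups themselves did overlap (26.9 to 52.2 at FARSB and 12.2 to 30.9 at FARSA).

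NARS2, the mitochondrial asparaginyl enzyme, followed with a fold enrichment of 23.03 (17.0 to 30.4) and a pileup of 49 at chr11:78285346-78286134, its summit 14 bp from a TSS in an untranslated exon. The scaffold gene AIMP2 came next with 21.15 (14.3 to 30.2) and a pileup of 30 at chr7:6048536-6049241, where PMS2, a mismatch repair gene, starts on the other strand. IARS1, the cytosolic isoleucyl enzyme, had a fold enrichment of 17.8 (13.4 to 23.1) at chr9:95055724-95056441. Its pileup of 56 and -log10 p of 49.5 were the highest of the group, and its lower fold enrichment than FARSB goes with a local background of 3.15 fragments against 1.36. These top members overlapped one another in their counting intervals, and their order is not resolved.

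The other members of the upper 10 had fold enrichments between 14.0 and 16.5. They were EPRS1, the bifunctional glutamyl-prolyl enzyme (16.5, pileup 39, chr1:220219530-220220123), the threonyl enzyme gene TARS1 (16.4, pileup 31, chr5:33440703-33441418), the mitochondrial cysteinyl enzyme gene CARS2 (16.3, pileup 27, chr13:111358415-111358962) and the mitochondrial phenylalanyl enzyme gene FARS2 (16.1, pileup 24, chr6:5260504-5262023). MARS1, the methionyl enzyme gene (14.8, pileup 19, chr12:57881614-57882103), and VARS1, the valyl enzyme gene (14.0, pileup 18, chr6:31762986-31763548), completed them. The strongest 10 thus comprised 6 cytosolic genes, 3 mitochondrial genes and 1 scaffold gene.

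The middle of the range was formed by EEF1E1 (13.1), MARS2 (12.9), CARS1 and YARS1 (12.7 each), PARS2 and EARS2 (12.3 each), YARS2 (11.85), GARS1 (11.45) and SARS1 (11.3). Below the median of all genes lay LARS2 (10.5), SARS2 (10.3), AIMP1 (10.15), LARS1 (9.65), AARS2 (9.52), KARS1 (9.14), WARS2 (8.83), NARS1 (8.70), RARS2 (8.09), WARS1 (7.62), QARS1 (7.11), FARSA (6.35) and the HARS1 and HARS2 pair (5.92). KARS1, YARS1 and CARS2 each had a weaker additional peak at another TSS, with fold enrichments of 8.25, 7.62 and 11.99. That of CARS2 lay on the side of ING1, 78 bp from an upstream start annotated for CARS2.

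**Figure D2:**
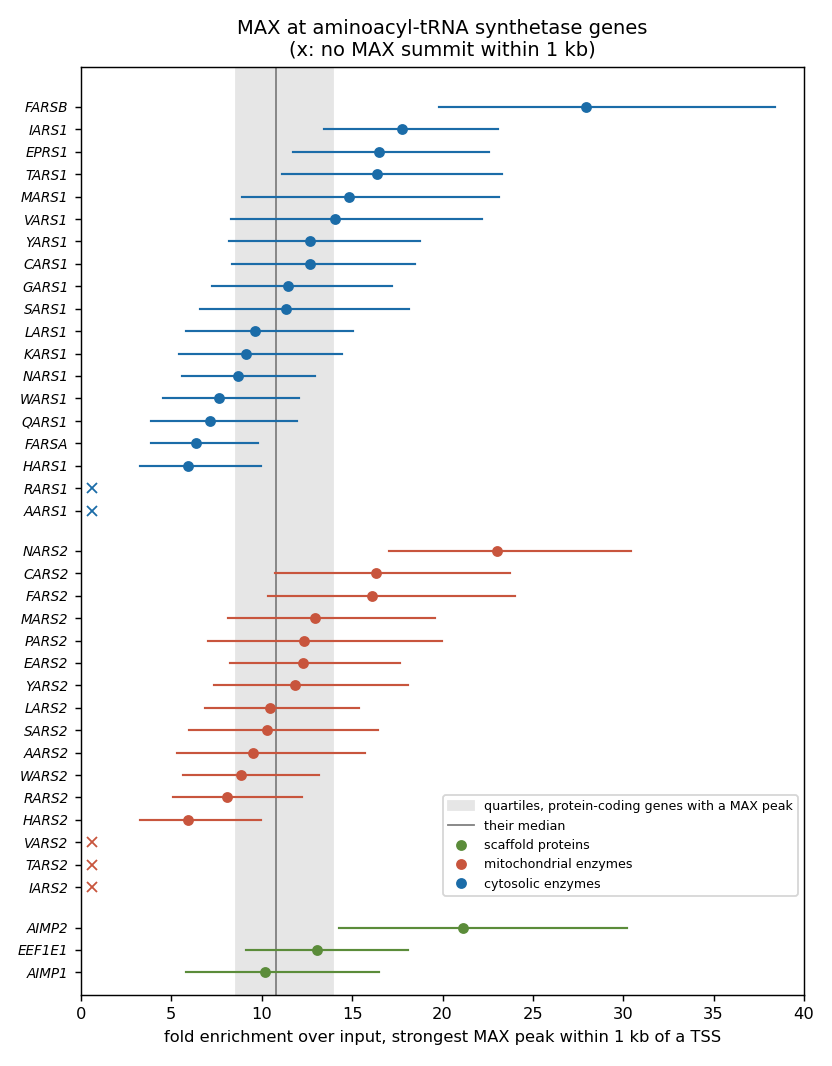
Fold enrichment over input of the strongest MAX peak within 1 kb of a TSS for each member, grouped by class (blue, cytosolic enzymes; red, mitochondrial enzymes; green, scaffold proteins). Horizontal lines are exact Poisson intervals of the pileup divided by the local background, the grey band and line are the quartiles (8.57 and 13.9) and the median (10.8) over protein-coding genes with a MAX peak, and crosses mark members without one. The points run from 5.92 at HARS1 and HARS2 to 28.0 at FARSB, and the classes overlap.

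HARS1 and HARS2, the cytosolic and mitochondrial histidyl enzymes, lie on opposite strands, with their closest annotated starts 15 bp apart. They shared the weakest peak of the group, at chr5:140070615-140071452. Its pileup was 14, its fold enrichment 5.92 (3.24 to 9.93) and its -log10 p 7.47, and only 5.23% of all MAX peaks were weaker. The summit lay 28 bp upstream of the nearest HARS2 start and 118 bp upstream of the nearest HARS1 start. This peak and the additional YARS1 peak (-log10 p of 7.86) were the 2 of 35 distinct peaks of the group that do not reach the cutoff of 1e-08 given in the methods of the study, whereas the headers of the lists give 1e-05.

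For 13 amino acids the list held a cytosolic and a mitochondrial enzyme gene with the same symbol stem, and these were compared as pairs. Phenylalanine (FARSA and FARSB with FARS2) also had both enzymes in the list, as did glutamate and proline (EPRS1 with EARS2 and PARS2). Those were not paired here. Besides the shared histidyl peak, the cytosolic gene had the higher fold enrichment in 3 pairs (MARS, SARS and YARS) and the mitochondrial gene in 4 pairs (CARS, LARS, NARS and WARS). The counting intervals of the fold enrichment overlapped in each of these pairs except the asparaginyl one, so their order is not resolved. Pileups were equal in the SARS pair (17 each) and the CARS pair (27 each). In the MARS pair the pileup was higher at the mitochondrial gene (22 against 19). In these SARS, CARS and MARS pairs the order of the fold enrichments came from the local background. The asparaginyl pair differed most, with 8.70 (5.57 to 12.9) at NARS1 and 23.03 (17.0 to 30.4) at NARS2, and its counting intervals did not overlap. In the other 5 pairs MAX was listed at 1 of the 2 genes, namely at AARS2, RARS2, IARS1, TARS1 and VARS1. No amino acid of the 13 lacked MAX at both of its genes.

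The other 5 members had no MAX summit within 1 kb. At AARS1, the cytosolic alanyl enzyme gene, the nearest MAX summit was 57201 bp away at the start of DDX19A (fold enrichment 13.25, pileup 17), although AARS1 has a CpG-rich start and DDX19B as its opposite-strand neighbour. At IARS2 the nearest summit was 4382 bp away, 17 bp from the start of BPNT1 (6.68, pileup 15), and at VARS2 it was 6188 bp away, 190 bp from the start of GTF2H4 (12.7, pileup 18). TARS2 had its nearest MAX summit at 31803 bp (5.92, pileup 14) and RARS1 at 597778 bp (9.35, pileup 12), both outside 1 kb of any protein-coding start. RARS1 and TARS2 are also among the 4 members without a CpG-rich start, whereas AARS1, IARS2 and VARS2 have one.

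The MAX peaks of the group sat close to the start sites. Of the 35 distinct peaks, 24 had their summit within 100 bp of a TSS of the member they were assigned to (68.6%). The share was 47.3% for the 7285 MAX peaks near protein-coding genes. Their distance was taken to the nearest TSS of any protein-coding gene, so the measures are not the same. Of the 35 member peaks, 32 were within 200 bp. The shared histidyl peak was assigned to HARS1 (118 bp) and is not among the 24. A HARS2 start lay 28 bp from its summit. The median distance, measured in these different ways, was 33 bp against 112 bp. The summits beyond 200 bp were those of FARSB (337 bp upstream), SARS1 (389 bp downstream, in an intron) and YARS2 (448 bp downstream, in a coding exon). Members had more annotated TSSs than other genes, which shortens the distance to the nearest, and the part of this in the difference was not tested. The median pileup of these peaks was 22 against 18, and their median length 558 bp against 481 bp.

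The canonical E-box was not more frequent under these peaks than elsewhere. CACGTG, searched on both strands in 200 bp at the summit, was present at 5 of 35 peaks (14.3%, 4.81 to 30.3), compared with 20.5% of the MAX peaks near all protein-coding genes. The 5 carriers printed above included 2 of 19 peaks of cytosolic enzymes, 2 of 14 of mitochondrial enzymes and 1 of 3 of scaffolds. Their fold enrichments were 28.0 at FARSB, 23.03 at NARS2, 17.8 at IARS1, 13.1 at EEF1E1 and 12.3 at EARS2, a median of 17.8, compared with a median of 10.9 (range 5.92 to 21.15) at the 30 peaks without it. The same order held over all protein-coding genes, with medians of 12.5 with and 9.76 without CACGTG. The E-box lay 11 to 92 bp from the summit in the 5 peaks, closest at EEF1E1 (11 bp), FARSB (15 bp) and NARS2 (26 bp).

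Over the whole peak, CACGTG was present in 9 of 35 peaks (25.7%, against 29.8%), with VARS1, CARS2, MARS2 and AIMP2 added at 117 to 215 bp from the summit. The E-box variant CACGCG, a sequence that MYC and MAX also bind, was present within the 200 bp in 10 of 35 peaks (28.6%, 14.6 to 46.3, against 18.7%). These variants lay 2 bp from the summit at YARS1, 4 bp at FARS2 and 13 bp at SARS1. The variant CACGTT was within the 200 bp in 2 peaks (5.71%, against 6.53%), those of EPRS1 at 12 bp and AIMP2 at 75 bp. Any of these 3 motifs was present in 15 of 35 peaks (42.9%, against 40.6%), so 20 of the 35 summits had none of them within that window.

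The ATF4 element core was more frequent under these peaks than under those of all genes. TGATGCAA, searched on both strands in the same 200 bp, was present at 5 of 35 peaks (14.3%, 4.81 to 30.3), whereas it was present at 0.467% of the MAX peaks near all protein-coding genes (34 of 7285). Of those 34 peaks, 5 thus belonged to this group. All 5 were peaks of cytosolic enzymes, of 19 (26.3%, 9.15 to 51.2), with the core 8 bp from the summit at MARS1, 18 bp at YARS1, 39 bp at CARS1 and 83 bp at both IARS1 and TARS1. Over the whole peak it was present in 8 of 35 (22.9%, 10.4 to 40.1, against 0.906%), with NARS1 at 163 bp, EPRS1 at 178 bp and, as the only mitochondrial enzyme gene, FARS2 at 102 bp. The MAX fold enrichment at these 8 members ranged from 8.70 at NARS1 to 17.8 at IARS1.

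IARS1 was the member with both elements in its 200 bp window. The E-box lay on the upstream side of the summit and the ATF4 core on the downstream side, with the nearest TSS between them. Both elements lay upstream of the canonical TSS of IARS1, the E-box at -183 and the core beginning at -13. A match is a description of the letters only, since ATF4 binding was not measured.

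**Figure D3:**
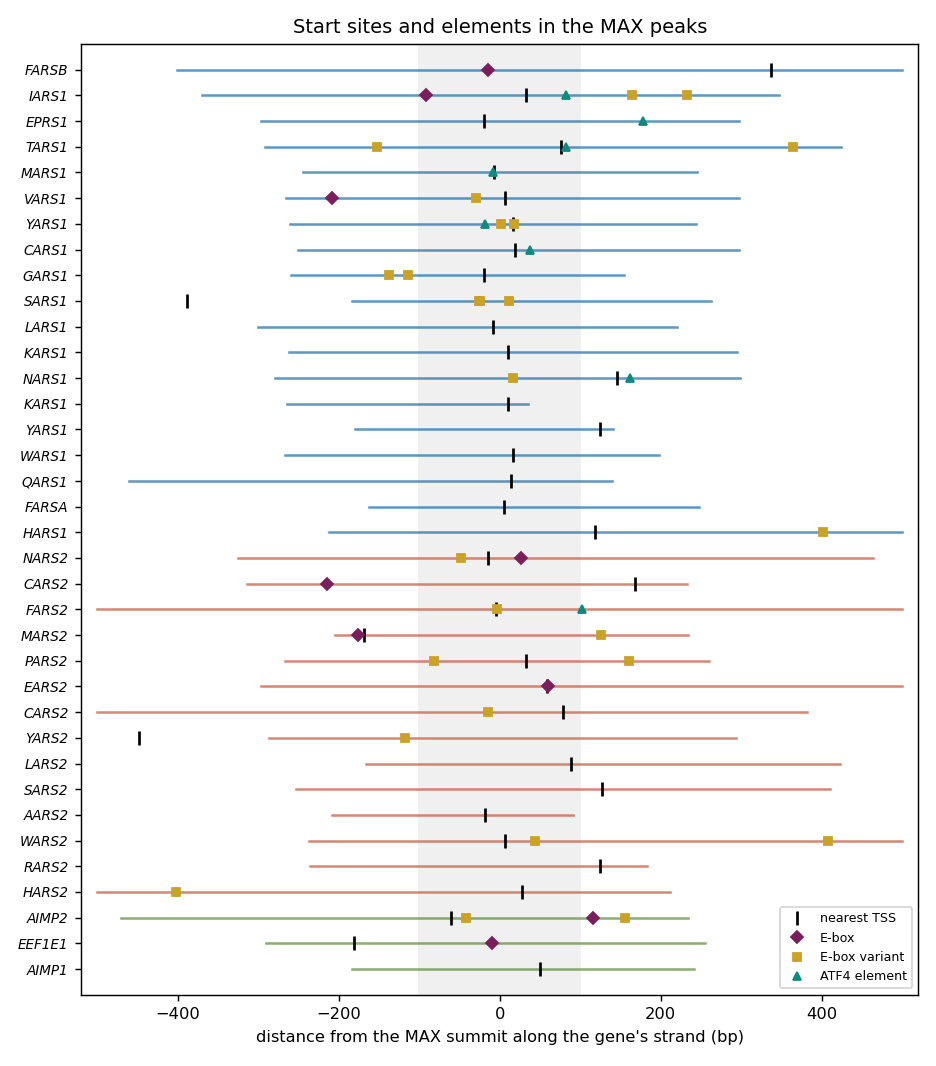
Position of the nearest TSS (black ticks) and of the E-box CACGTG (diamonds), its variant CACGCG (squares) and the ATF4 core TGATGCAA (triangles) relative to the MAX summit at 0, in bp along the strand of each member. Coloured lines are the peaks, blue for cytosolic enzymes, red for mitochondrial enzymes and green for scaffolds, drawn to 500 bp on either side, and the grey band is the 200 bp window. The shared HARS1 and HARS2 peak is drawn for both genes. Start sites cluster at the summits, and triangles lie in 7 peaks of cytosolic enzymes and 1 of a mitochondrial enzyme.

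The same motifs were counted in promoter sequences that do not depend on the peaks, from RefSeq (GRCh38.p14), each covering 250 bases before to 50 after the start of a gene. Of the 38 members 33 were matched, and LARS1, VARS1, YARS1, AARS2 and VARS2 were not. CACGTG was present in 4 of 33 (12.1%, 3.40 to 28.2), at IARS1, CARS2, EARS2 and MARS2, against 8.87% of 15811 protein-coding promoters. CACGCG was present in 6 of 33 (18.2%, against 14.8%), at NARS1, TARS1, FARS2, HARS2, IARS2 and PARS2. CACGTT was present in 3 of 33 (9.09%, against 5.4%), at EPRS1, WARS1 and NARS2. For these E-box motifs the counting intervals of the members' shares included the shares over all promoters.

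TGATGCAA was present in 6 of 33 promoter sequences (18.2%, 6.98 to 35.5), against 0.67% of all protein-coding promoters (106 of 15811). All 6 belonged to cytosolic enzymes, AARS1, CARS1, IARS1, MARS1, NARS1 and TARS1, which is 6 of 16 matched genes of that class (37.5%, 15.2 to 64.6). It was present in 0 of 14 promoters of mitochondrial enzymes and 0 of 3 of scaffolds. Counted from 0 at the first transcribed base, the core began at positions from -13 to 14 in 5 of the 6 genes and at -187 in AARS1. AARS1, which charges alanine, was the one of the 6 without a MAX peak, and the other 5 matches are the same bases as those found under the peaks above.

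The median distance from a TSS to the nearest BMAL1 summit was 1.04e+06 bp over the members and 909632 bp over all protein-coding genes. A BMAL1 summit lay within 50 kb at 4 of 38 members (10.5%, 2.94 to 24.8) against 8.33% of all genes, and none lay within 100 kb at 34 members (89.5%) against 86.4% of all genes. The summits near IARS1 (31796 bp, fold enrichment 23.6, pileup 57), EARS2 (13123 bp, 21.4, pileup 33) and FARSA (37426 bp, 8.81, pileup 30) lay at the starts of other genes, at 14 bp from NOL8, 28 bp from GGA2 and 147 bp from GCDH.

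CARS1 held the only BMAL1 peak within the body of a member, in an intron 7314 bp from the nearest TSS at chr11:3071112-3071412. Its fold enrichment was 4.23, with a pileup of 18 and a -log10 p of 6.88, and 2.38% of the 756 BMAL1 peaks were weaker. A MAX peak with a fold enrichment of 9.87 and a pileup of 21 overlapped it, and its summit was 7440 bp from the TSS. The overlap held 1 E-box, centred 9 bp from where BMAL1 signal was highest and 135 bp from where MAX signal was, at chr11:3071290-3071319, shown on the strand of the gene (minus).
CARS1: gccttggggcatCACGTGgctccgtaggct

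Other MAX peaks in gene bodies beyond 1 kb of a start were those of LARS2 (fold enrichments 11.4 and 6.21) and RARS2 (9.87), without a BMAL1 peak. The CARS1 BMAL1 peak does not reach the cutoff of 1e-08 given in the methods of the study.

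**Figure D4:**
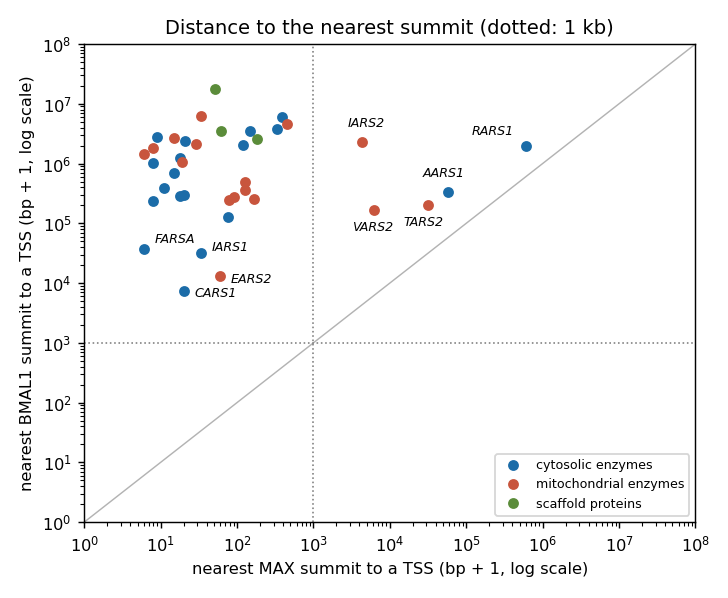
Distance from the nearest TSS of each member to the nearest MAX summit (horizontal) and to the nearest BMAL1 summit (vertical), in bp plus 1 on log scales, coloured by class, with dotted lines at 1 kb and a line of equal distance. The 33 members with MAX lie left of the vertical dotted line, no member lies below the horizontal one, and the 4 lowest points are CARS1, EARS2, IARS1 and FARSA.

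To place the group beside other genes of the same process, 18 genes of tRNA charging and delivery were counted in the same way. MAX was listed at 14 of 18 (77.8%, 52.4 to 93.6), with TSFM, GATB, MTFMT and XPOT lacking a peak, and the interval overlapped that of the synthetases. Their median fold enrichment was 9.31 (8.02 to 12.1), with the elongation factor gene EEF1B2 the highest at 30.8. BMAL1 was listed at 1 of 18 (5.56%, 0.141 to 27.3). This was EEF1A1, the factor that delivers charged tRNA to the ribosome, with a BMAL1 fold enrichment of 5.13 and a pileup of 17 at 44 bp from a TSS, where 3.70% of BMAL1 peaks were weaker. Its -log10 p of 7.80 is also under the cutoff of the methods. EEF1A1 had MAX peaks of 11.85 and 10.15 within 1 kb of its start sites.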

How the data were processed

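BMAL1 and MAX ChIP-seq of MDA-MB-231 cells were used, 1 library per antibody and 1 input. The submitters' processing notes name BWA 0.6.2, SAMtools, MACS2 2.0.9 and hg19. Per the file headers, the pileup is an unscaled signal of tags extended to 300 bp. The fold enrichment, a ratio to the local background, and the -log10 p-values and q-values were also deposited by the authors. Positions were used as deposited. Up to 2 tags at a position were kept for BMAL1 and 1 for MAX, the p cutoff was 1e-05 in the headers, and all listed peaks were used.

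TSSs were those of all transcripts in GENCODE release 44 mapped to GRCh37, and the representative TSS was the canonical one. A summit within 1 kb counted for every gene with a TSS there. Intervals were 95% exact binomial, exact Poisson for pileups with the background held fixed, or order-statistic for medians, and cover counting error only. No test was made because there were no replicates. The counting steps were tested on simulated data. Gene lists and motifs, like the members, were chosen with earlier results of these data known. Every member was named, with full values for the 10 with the highest MAX fold enrichment, for the pair with a shared promoter, and for those without a MAX summit (their nearest peak). Members with a BMAL1 summit within 1 kb were to be included, and there were none. CARS1, the FARSA and FARSB pair and the neighbouring BMAL1 sites were singled out after their values were seen. Alternatives covered distance, p threshold, TSS set, gene assignment, enrichment measure, window and motif. Sequences were read with pysam 0.24.0, intervals computed with scipy 1.17.1, tables handled with pandas 2.3.3 and numpy 2.4.6, and plots drawn with matplotlib 3.10.9 under Python 3.11.15.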

Additional observations from a re-analysis of the deposited data

How the results depend on the processing

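Of the values recomputed under the alternatives, 55 stayed within the counting interval of the reported value and 4 did not. A p threshold of 1e-12 lowered the share of members with MAX to 68.4% (background 23.5%), counting CACGCG with CACGTG raised the share of MAX summits with either to 40% (background 36.3%) and of promoter sequences to 30.3% (background 22.0%), and searching 200 bases on either side of every TSS raised the promoter share to 36.8% (background 24.1%), by construction since more sequence or motifs were searched or fewer peaks kept. Under the other alternatives the MAX share lay between 78.9% and 89.5%, BMAL1 stayed at 0 of 38, and the ratio of the members' median MAX enrichment to that of all genes, 1.10, lay between 1.11 and 1.17. For BMAL1, only counting a summit within 5 kb or any base of a peak within 1 kb could have raised the count. The other BMAL1 alternatives narrowed the pairs of summits and start sites counted. Their values of 0 were fixed in advance and are among the 55.

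No paired analysis was possible because each antibody had 1 library and no result came from a test. No replicate was there to leave out. A peak of the median height near members rested on 22 fragments, and the shared HARS1 and HARS2 peak was lost at 1e-08.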
